A study of Mus musculus with 16 samples.

Results

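The fibril-associated collagens described here are 8 genes, Col9a1, Col9a2, Col9a3, Col12a1, Col14a1, Col16a1, Col22a1 and Col27a1, taken by symbol from the 25719 genes counted in each library. All 8 were listed in the files, and 6 of them passed the filter on low counts that 14803 genes passed. Col9a1 and Col9a2 did not. RNA was sequenced from mouse tail tendon fascicles, the fine parallel strands of the tail tendons, in 8 wild type (WT) libraries and 8 libraries of the genotype ScxCre;Vhlf/f (knockout, KO). In the knockout, Cre made under control of the tendon gene Scx removes the floxed part of Vhl, so cells outside the Scx lineage keep the gene. The labels name the cells as all those of the tissue. They give neither age nor sex, and they do not say whether wild type mice carried the floxed allele or Cre. They also do not say that each library is a separate mouse, so p-values measure the spread between these libraries, which may be partly technical. In bulk tissue, fewer cells of a type and less RNA per cell cannot be told apart.

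Fibril-associated collagens with interrupted triple helices (FACITs) do not build fibrils themselves. They lie on the surface of fibrils made of type I or type II collagen and link them to other matrix molecules. Collagens XII and XIV, each a trimer of identical chains, coat type I fibrils in tendon and other dense connective tissue. Collagen IX is assembled from 1 chain each of Col9a1, Col9a2 and Col9a3 and decorates the type II fibrils of cartilage. Collagen XVI is found in many connective tissues, and collagen XXII lies at tissue junctions, above all where muscle fibres meet tendon. Collagen XXVII, also counted here, is by structure a fibril-forming collagen known from cartilage, not a FACIT.

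The libraries held between 10488355 and 18753254 counts. Vhl was measured at 7.51 to 10.9 CPM (counts relative to library size, scaled by trimmed means of M-values, TMM) in knockout libraries and at 14.1 to 25.8 CPM in wild type libraries. Tendon markers were abundant in both groups, among them Tnmd (mean 1255 CPM in knockout and 2363 CPM in wild type libraries) and Fmod (6522 and 15910 CPM). Of 10 tenocyte markers 6 fell, 4 did not pass and 0 rose by the test given below. Over all tested genes 22.7% were lower and 25.6% higher. Type I collagen took 13.2% ± 3.31 of all counts in knockout libraries and 23.1% ± 5.36 in wild type libraries (SD, n = 8). Such a difference moves every other gene when libraries are scaled by total counts. With total counts alone, the median log2 difference of all tested genes moved from 0.02 to 0.32. The part of type I collagen in that move was not tested. The amount of skeletal muscle RNA varied between libraries of both groups. The summed level of 15 muscle genes ran from 426 to 25700 CPM in knockout libraries (median 2700) and from 103 to 11000 CPM in those of the wild type (median 521). Of the 15 genes, 2 passed the test, both higher in the knockout, beside 25.6% higher over all tested genes. The only marker at 0 in any library was Pvalb, in the wild type.

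Per kilobase of exon, Col12a1 was the most abundant of the 8 genes, followed by Col16a1 and Col14a1. The mean levels in the wild type were 149 ± 27.4 CPM per kilobase for Col12a1, 56.2 ± 10.3 for Col16a1 and 11.7 ± 2.32 for Col14a1 (SD, n = 8). In the knockout they were 138 ± 10.9, 80.9 ± 13.1 and 14.3 ± 2.53 in the same order. The ranges of these 3 genes did not overlap in either genotype. Below them came Col27a1, at 0.860 ± 0.144 CPM per kilobase in wild type and 1.41 ± 0.394 in knockout libraries, and Col9a3, at 0.722 ± 0.154 and 0.268 ± 0.0671. The wild type ranges of these 2 genes overlapped (0.603 to 1.08 for Col27a1 and 0.385 to 0.927 for Col9a3), and the knockout ranges did not. Col22a1 ranged from 0 to 2.44 CPM per kilobase in wild type libraries and from 0.0806 to 3.90 in those of the knockout, and so overlapped both. Together the 8 genes took 0.307% ± 0.0162 of all counts in knockout libraries and 0.246% ± 0.0345 in wild type libraries (SD, n = 8).

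**Figure D1:**
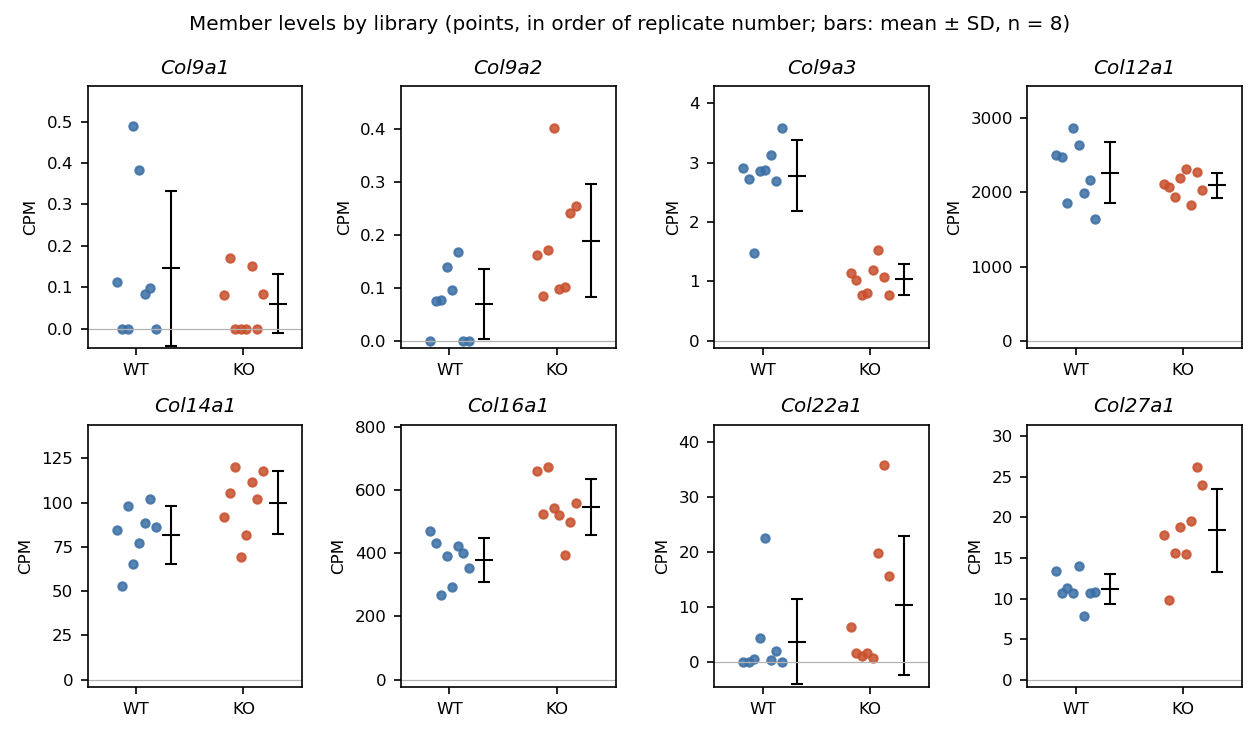
Level of each gene in CPM (vertical axis, linear, own scale per panel) in the 8 wild type (WT, blue) and 8 knockout (KO, red) libraries. Points are libraries and bars are the mean ± SD. Col9a3 is lower and Col16a1 and Col27a1 are higher in most knockout libraries, Col12a1 lies between 1644 and 2861 CPM in all 16, and Col22a1 is spread over 0 to 35.9 CPM.

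Past the threshold (p under 0.05 from the quasi-likelihood test of edgeR, adjusted by Benjamini-Hochberg over all tested genes) were 3 of the 6 tested members. Col16a1 and Col27a1 rose in the knockout and Col9a3 fell. Over all tested genes 48.3% passed the same threshold, 25.6% higher and 22.7% lower, so the share of members called is near that of any tested gene. Groups without overlap were found for 0 of the 6, against 19.4% of all tested genes (10.8% higher and 8.61% lower in the knockout). The median log2 fold change of the 6 was 0.41, beside 0.02 over all tested genes. The median does not cover Col9a1 and Col9a2.

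**Figure D2:**
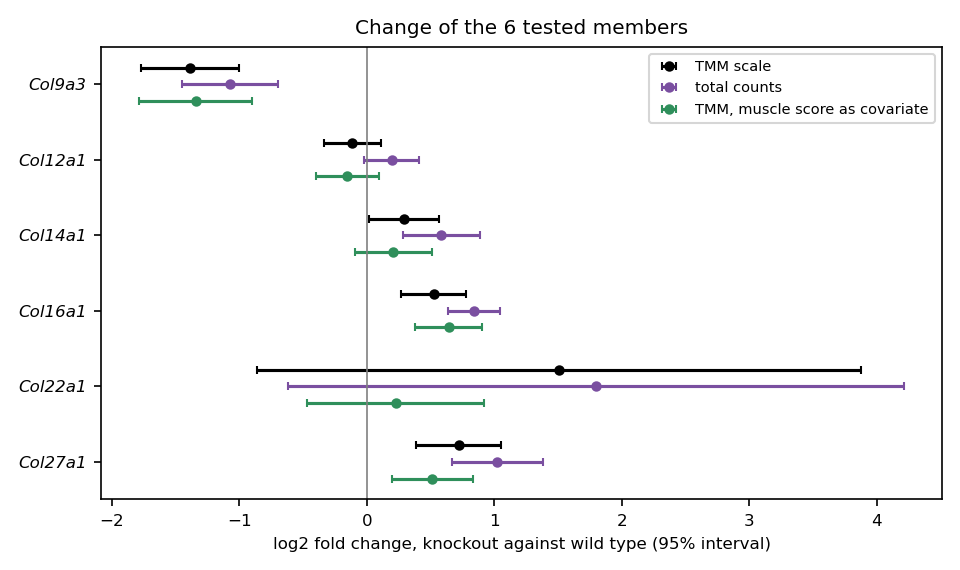
Log2 fold change of the 6 tested members between knockout and wild type (horizontal axis) with 95% intervals, on the TMM scale (black), with total counts (purple) and with a muscle score covariate (green). The intervals of Col9a3, Col16a1 and Col27a1 exclude 0 in all 3 fits, Col12a1 changes sign with total counts, and the interval of Col22a1 narrows with the muscle score.

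Col12a1 (ENSMUSG00000032332, chromosome 9) encodes the single chain of collagen XII, which bridges neighbouring fibrils in load-bearing tissue. It was measured at 1825 CPM in the lowest, 2092 CPM in the median and 2320 CPM in the highest knockout library. The wild type values were 1644, 2323 and 2861 CPM. All 8 knockout libraries lay inside the wild type range. The mean was 2095 ± 166 CPM over knockout and 2267 ± 418 CPM over wild type libraries (SD, n = 8). The log2 difference of -0.11 (SE 0.108, 95% interval -0.34 to 0.11) did not pass the threshold (adjusted p = 0.400). This does not show that the levels were equal. With total counts the sign was reversed (0.19, adjusted p = 0.109). Its coefficient of variation was 7.92% in the knockout, the lowest of the 8 genes, and 18.4% in the wild type.

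Col14a1 (ENSMUSG00000022371, chromosome 15) encodes collagen XIV, which takes part in the early growth of tendon fibrils. Knockout libraries lay between 69.3 and 120 CPM with a median of 104 CPM. Wild type libraries lay between 53.2 and 102 CPM with a median of 85.5 CPM, so 4 knockout libraries were above the wild type range and 4 were inside it. The log2 difference was 0.29 (SE 0.130, 95% interval 0.01 to 0.56) and did not pass the threshold (unadjusted p = 0.0399, adjusted p = 0.0759, edgeR). The call hung on the settings. The adjusted p was 0.00179 with total counts (0.58, where the median of all genes was 0.32), 0.0244 without knockout library 4 and 0.0433 without wild type library 7.

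Collagens XII and XIV can be compared with each other inside each library, which removes the scale of the library. The log2 ratio of Col12a1 to Col14a1 counts was 4.41 ± 0.362 over knockout and 4.80 ± 0.525 over wild type libraries (SD, n = 8). The difference of -0.39 did not exceed the spread between libraries (two-sided exact permutation test, p = 0.105, 0.152 after Benjamini-Hochberg adjustment over 13 ratios). Within genotypes the genes tended to move in opposite directions. The deviations of their log2 CPM from the genotype mean had a Pearson correlation of -0.59 over 16 libraries, the most negative of the 15 pairs of tested members, given as a description.

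Col16a1 (ENSMUSG00000040690, chromosome 4) encodes collagen XVI, a FACIT that binds integrins and is made by fibroblasts and other cells of connective tissue. It rose in the knockout. Its lowest, median and highest knockout libraries were at 395, 534 and 671 CPM, and those of the wild type at 268, 396 and 471 CPM. Of the 8 knockout libraries 7 were above the highest wild type library, and library 6 was inside the wild type range. The mean was 546 ± 88.4 CPM against 379 ± 69.6 CPM (SD, n = 8), a log2 fold change of 0.53 (SE 0.121, edgeR quasi-likelihood test, adjusted p = 0.00131). Every alternative tried gave an adjusted p between 4.47e-07 and 0.00449.

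Col27a1 (ENSMUSG00000045672, chromosome 4) encodes the chain of collagen XXVII and also rose. Knockout libraries ran from 9.78 to 26.1 CPM with a median of 18.3 CPM, and wild type libraries from 7.85 to 14.0 CPM with a median of 10.8 CPM. Of the 8 knockout libraries 7 were above the wild type range, and library 2 was inside it. The means were 18.4 ± 5.13 and 11.2 ± 1.87 CPM (SD, n = 8), a log2 fold change of 0.72 (SE 0.159, edgeR quasi-likelihood test, adjusted p = 9.22e-04). With the muscle score as a covariate it was 0.51 (adjusted p = 0.00978), and without the 4 libraries of highest muscle score it was 0.53 (adjusted p = 0.00882).

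The sequences before the starts of both raised genes are shown because loss of Vhl stabilises the hypoxia-inducible factors, whose known DNA element has the core ACGTG or GCGTG. Both are from RefSeq on GRCm38.p6, plus strand, 250 bases ending just before the annotated start, and capitals mark a core on either strand.
Col16a1, chr4:130047590-130047839: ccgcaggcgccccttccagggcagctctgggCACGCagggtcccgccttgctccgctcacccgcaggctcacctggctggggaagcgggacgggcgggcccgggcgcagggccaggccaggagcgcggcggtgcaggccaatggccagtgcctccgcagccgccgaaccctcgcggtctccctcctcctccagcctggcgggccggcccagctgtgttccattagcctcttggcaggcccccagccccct
Col27a1, chr4:63215162-63215411: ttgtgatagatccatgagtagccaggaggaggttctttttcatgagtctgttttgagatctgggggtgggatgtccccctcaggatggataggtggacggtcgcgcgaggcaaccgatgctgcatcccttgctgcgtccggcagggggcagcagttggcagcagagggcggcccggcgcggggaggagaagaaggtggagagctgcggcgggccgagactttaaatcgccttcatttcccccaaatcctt
The Col16a1 stretch holds GCGTG once, on the minus strand (read as CACGC above), with its first base 219 bases before the start, and it does not hold ACGTG. Neither core was found in the Col27a1 stretch. Of the 8 genes, 4 (also Col9a1, with 2 starts, and Col9a2) had an entry in the table, and the other 3 stretches held neither core. Over 32851 stretches of the same length, 16.6% held ACGTG, 28.2% held GCGTG and 38.6% held at least 1 of them. The SOX-type motifs ACAATG and ACAAAG, searched on both strands, were in none of the 5 stretches, against 10.7% and 16.5% of all.

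Col9a3 (ENSMUSG00000027570, chromosome 2) encodes the α3 chain of collagen IX. It was lower in the knockout at a low level of expression. Knockout libraries held 9 to 30 counts and lay between 0.764 and 1.52 CPM with a median of 1.04 CPM. Wild type libraries held 19 to 41 counts and lay between 1.48 and 3.57 CPM with a median of 2.87 CPM. Of the 8 knockout libraries 7 were below the wild type range, and the overlap came from knockout library 6 and wild type library 3. The means were 1.03 ± 0.258 and 2.78 ± 0.595 CPM (SD, n = 8). Col9a3 fell by 1.39 on the log2 scale (SE 0.184, edgeR quasi-likelihood test, adjusted p = 3.53e-06).

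In the GENCODE M21 annotation the last of the 33 merged exons of Col9a3 overlaps exons of Tcfl5, a gene for a transcription factor on the other strand, over 234 bases or 6.07% of the exon bases of Col9a3. The use of strand in counting is not given in the sources used here, so reads from the shared stretch cannot be assigned to either gene with certainty. Tcfl5 was more abundant than Col9a3, at 21.2 ± 6.43 CPM in wild type and 5.95 ± 1.88 CPM in knockout libraries (SD, n = 8), and it fell too (log2 fold change -1.81, SE 0.225, adjusted p = 2.82e-06). It was also the gene whose pattern was most like that of Col9a3 among 13412 compared, with correlations across libraries of 0.96 among wild type and 0.70 among knockout libraries. The next were Bap1, a chromatin deubiquitinase (correlation of deviations 0.819), and Tfb2m, a factor of mitochondrial transcription (0.792). The lowest wild type library of both Col9a3 and Tcfl5 was library 3. The part of Tcfl5 reads in the Col9a3 counts was not tested.

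The other collagen IX chains were at the limit of detection. Col9a1 (ENSMUSG00000026147, chromosome 1) held 7 counts over all knockout libraries and 14 over all wild type libraries, 7 of them in wild type library 4, and 7 of the 16 libraries held none. Col9a2 (ENSMUSG00000028626, chromosome 4) held 22 counts in the knockout, 1 to 5 per library, and 7 in the wild type, 0 to 2 per library. A count of 3, taken as the floor, corresponds to 0.145 to 0.336 CPM depending on the library, and 14 libraries for each gene were at or under it. Neither gene was tested in the fit across genes, and their levels are too low to give a fold. With the filter removed, the adjusted p was 0.238 for Col9a1 and 0.0796 for Col9a2 (edgeR). The ratio of Col9a2 to Col9a3 counts within libraries did not overlap between genotypes and was higher in every knockout library (difference of mean log2 ratios 2.44, exact permutation test, p = 0.000155, the smallest possible, adjusted 6.73e-04, n = 8). The size of that difference depends on the added count, and with 2 added in place of 0.5 it was 1.68 (adjusted exact p = 0.00152). It rests on at most 5 counts of Col9a2 per library, with none in 3 wild type libraries, and on Col9a3 counts that share exon bases with Tcfl5. Col9a3 itself fell by 1.39 on the log2 scale, so the exact test of this ratio also tests that fall. The ratios of Col9a1 to Col9a2 (-1.84, adjusted exact p = 0.0626) and to Col9a3 (0.60, adjusted exact p = 0.407, 0.35 to 0.89 with each library left out) did not pass. Without knockout library 2 or 6 or wild type library 2 or 3 the former passed, at -2.17 to -2.11 (adjusted exact p = 0.0278 to 0.0418).

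Col22a1 (ENSMUSG00000079022, chromosome 15) encodes collagen XXII, which anchors the basement membrane of muscle fibres to tendon at the myotendinous junction. On the log2(CPM + 0.5) scale its SD was 1.88 over knockout and 1.99 over wild type libraries, above that of the other 7 members in both. Knockout libraries 1 to 8 were at 6.31, 1.70, 1.11, 1.69, 0.742, 19.8, 35.9 and 15.7 CPM. Wild type libraries 1 to 8 were at 0, 0, 0.546, 4.46, 22.5, 0.338, 2.09 and 0 CPM. Knockout libraries 6, 7 and 8 and wild type library 5 were high, and the groups overlapped. The 3 wild type libraries at 0 allow up to 3 counts each. The log2 fold change was 1.50 (SE 1.11, 95% interval -0.86 to 3.87) and did not pass the threshold (adjusted p = 0.281, edgeR). Without wild type library 5 it was 3.22 and passed (adjusted p = 0.0259). A 16-base overlap with the antisense gene Gm16308 in the annotation covers little of its exon sequence.

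Col22a1 followed the muscle RNA of the library. Its log2 CPM correlated with the muscle score, the mean log2 CPM of the 15 muscle genes, with a Pearson correlation of 0.97 in the knockout (exact permutation p = 4.96e-04, Spearman 0.88, p = 0.00724, n = 8). In the wild type the Pearson correlation was 0.96 (exact permutation p = 5.95e-04, Spearman 0.90, p = 0.00536, n = 8). After adjustment over both genotypes the Pearson p was 5.95e-04 and the Spearman p 0.00724 in each. Without the 2 libraries farthest from the median score the Pearson correlations were 0.96 and 0.92 (exact permutation p = 0.00833 and 0.0167, n = 6). With the score as a covariate the log2 difference of Col22a1 between genotypes was 0.23 (95% interval -0.47 to 0.92, adjusted p = 0.612, edgeR). The log2 ratio of Col22a1 to the summed counts of the 15 muscle genes was -9.65 ± 0.469 over knockout and -10.27 ± 1.37 over wild type libraries, a difference of 0.62 within the spread (exact permutation p = 0.248, adjusted 0.322, n = 8). Its sign depended on the added count in libraries with no Col22a1 counts, and was reversed with a count of 2 added (-0.17). The 3 genes whose pattern was most like Col22a1 were Rtn2, Tmem182 and Myo18b (correlations of deviations 0.976, 0.976 and 0.973 over 16 libraries), of which Tmem182 and Myo18b are known from striated muscle.

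Of 12 other genes named in connection with the junction, 7 were higher, 1 was lower and 4 did not pass, with a median log2 fold change of 1.09. Over all tested genes 25.6% were higher and 22.7% lower. Ankrd1 (5.03, adjusted p = 0.00118), Xirp2 (3.92, adjusted p = 0.0253) and Nrap (3.07, adjusted p = 0.0349), which are genes of the muscle fibre and its anchored ends, were higher. In each of them the groups overlapped. Ankrd1 was at 46.0 ± 53.7 CPM in knockout libraries. In the wild type it was near the floor (median 0.436 CPM, lowest 0), so the size of its difference is uncertain. Itga7, the integrin α7 chain of muscle, rose from a mean of 13.9 to 45.6 CPM (log2 fold change 1.72, adjusted p = 9.83e-05). Lama2, the laminin α2 chain of the muscle basement membrane, fell from 202 ± 22.1 to 135 ± 32.2 CPM (log2 fold change -0.57, adjusted p = 5.79e-04). Tigd4 (1.28, adjusted p = 0.312), Dmd, Tln1 and Ncam1 did not pass. The muscle RNA of the libraries, given above, moves with these genes, and its part was not tested for them.

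**Figure D3:**
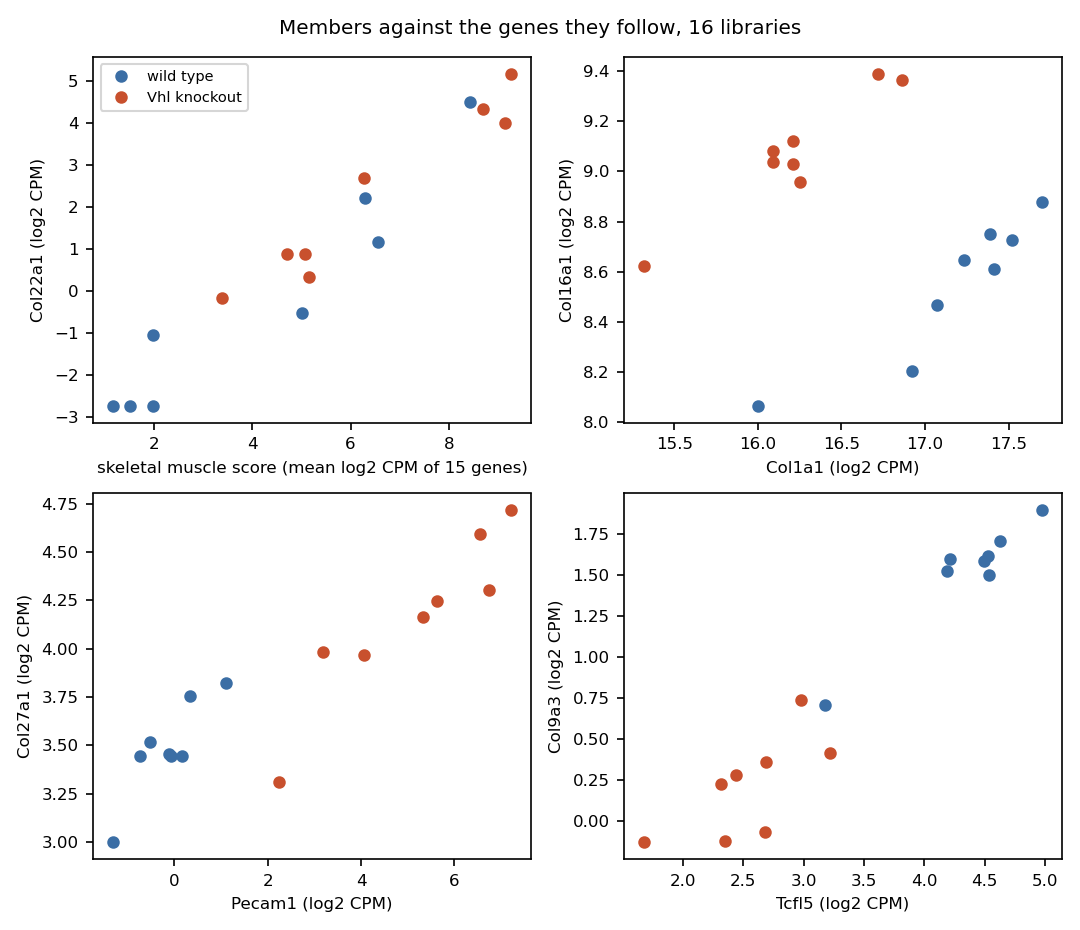
Log2 CPM of 4 members (vertical axes) against a measure they move with (horizontal axes) in 8 wild type (blue) and 8 knockout (red) libraries: Col22a1 against the muscle score, Col16a1 against Col1a1, Col27a1 against Pecam1 and Col9a3 against Tcfl5. In the Col16a1 panel each genotype forms its own rising band and the knockout band lies higher. In the Col27a1 panel each genotype also rises, but the groups do not overlap in Pecam1. Pecam1 differed between genotypes by 6.11 on the log2 scale and Col27a1 by 0.72. In the Col22a1 and Col9a3 panels the libraries lie roughly along 1 band.

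Col16a1 moved with type I collagen inside each genotype and against it between genotypes. By the rule that names the 3 most similar genes, Col1a1 and Col1a2 ranked first and second, with correlations of 0.96 and 0.98 over the knockout libraries and 0.93 and 0.92 over the wild type libraries. The third was Tpcn1, an ion channel of endosomes (correlation of deviations 0.926). Between genotypes Col1a1 fell by 0.95 and Col1a2 by 1.44 on the log2 scale, whereas Col16a1 rose by 0.53. The log2 ratio of Col16a1 to summed type I collagen counts therefore varied little within a group, at -7.74 ± 0.191 over knockout and -9.38 ± 0.282 over wild type libraries (SD, n = 8). All 8 knockout libraries were above all 8 wild type libraries. The difference of 1.64, a 3.12-fold higher ratio, had the smallest p the design allows (exact permutation test, p = 0.000155, adjusted 6.73e-04, n = 8). Wild type library 3, whose type I collagen was low, had the highest wild type ratio at -8.71, and leaving out any 1 library gave differences of 1.59 to 1.74.

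Relative to type I collagen, Col12a1, Col14a1 and Col27a1 were also higher in the knockout. The ratio of Col12a1 was 2.02-fold higher (log2 difference 1.01, adjusted exact permutation p = 0.00202, n = 8), that of Col14a1 2.65-fold (1.40, adjusted exact permutation p = 0.00202, n = 8) and that of Col27a1 3.45-fold (1.79, adjusted exact permutation p = 0.00152, n = 8). In these 3 ratios the groups overlapped, with 6, 4 and 6 of the 8 knockout libraries above the wild type range. The ratio of Col9a2 was higher without overlap (adjusted exact permutation p = 6.73e-04, n = 8), but it rests on at most 5 counts of Col9a2 per library. That of Col9a1 did not pass (adjusted exact permutation p = 0.664, n = 8). The ratio of Col9a3 did not pass (0.818-fold, log2 difference -0.29, adjusted exact permutation p = 0.335, n = 8), except without knockout library 6 (-0.49, adjusted exact p = 0.0283). Col22a1 to type I collagen passed (log2 difference 4.26, adjusted exact permutation p = 0.0268, n = 8), but its size depends on the count added in the 3 wild type libraries at 0, and it was 3.47 with 2 added (adjusted exact p = 0.0297). It did not pass without knockout library 7 or 8 or wild type library 1 or 8, where the adjusted exact p was 0.0502 to 0.0543. All 8 ratios share the fall of Col1a1 and Col1a2, which moves each of them upward in the knockout. The exact tests of these ratios therefore also test that fall. For Col9a3 the ratio differed by -0.29 and the level by -1.39. For Col12a1, whose own level did not pass the test, the ratio differed by 1.01 and the level by -0.11.

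**Figure D4:**
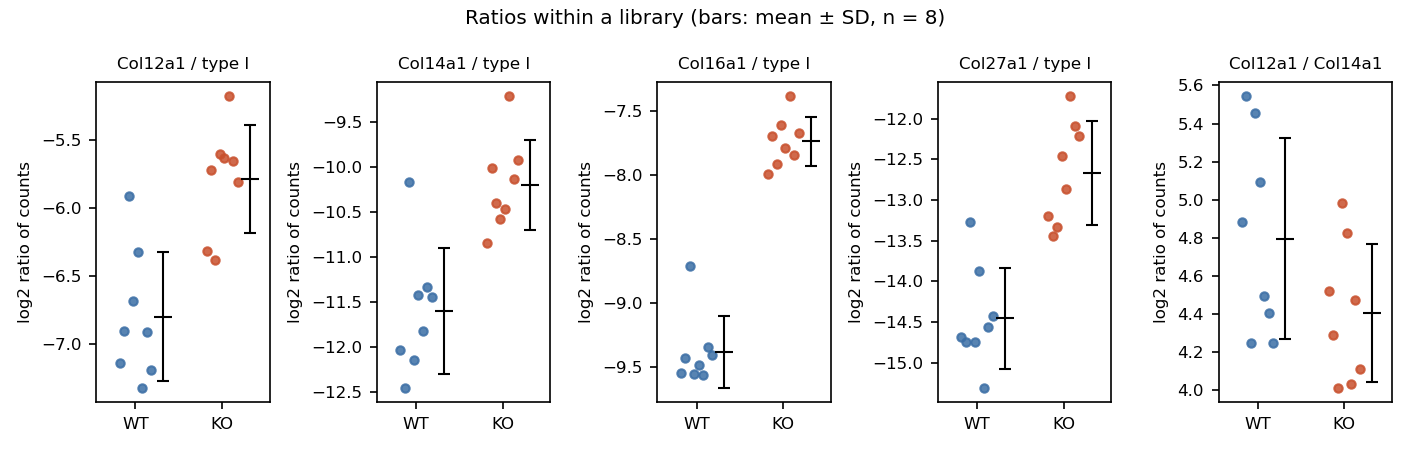
Log2 ratios of counts within a library for Col12a1, Col14a1, Col16a1 and Col27a1 over summed Col1a1 and Col1a2, and for Col12a1 over Col14a1 (vertical axes, own scale per panel). Points are libraries, 8 per genotype (WT wild type, KO knockout), and bars are the mean ± SD. The 4 ratios to type I collagen are higher in the knockout, with no overlap for Col16a1, and the ratio of Col12a1 to Col14a1 overlaps.

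Col27a1 moved with Pecam1 from library to library in both genotypes. The 3 genes most like it were Pecam1, an adhesion molecule of endothelial cells, Notch3, a receptor of mural cells, and Chd7, a chromatin remodeller (correlations of deviations 0.911, 0.883 and 0.881 over 16 libraries). Over the knockout and the wild type libraries the correlations were 0.93 and 0.88 for Pecam1, 0.97 and 0.55 for Notch3, and 0.96 and 0.58 for Chd7. Knockout library 2, with the lowest Col27a1 of the knockout (9.78 CPM), also had the lowest Pecam1 (4.59 CPM). Knockout library 7 had the highest of both (26.1 and 148 CPM). Wild type Pecam1 was near the floor, at 3 to 21 counts (0.253 to 2.02 CPM). Library 6 of the wild type, at 3 counts of Pecam1, was lowest in both genes. The wild type correlation with Pecam1 therefore rests on few counts. Of 10 endothelial markers, 7 were tested and 5 of them were higher in the knockout, beside 25.6% of all tested genes. The summed level of all 10 was 38.2 to 499 CPM in knockout and 30.6 to 50.2 CPM in wild type libraries. The other 3, Tie1, Emcn and Cldn5, were not tested and were at 0 in at least 1 wild type library. Their means were 13.4, 7.59 and 3.83 CPM in knockout and 0.104, 0.170 and 0.0572 CPM in wild type libraries. The muscle score also followed Col27a1 in the knockout (correlation 0.76 over its 8 libraries, against 0.41 over those of the wild type). The part of vessel RNA in the rise of Col27a1 was not tested.

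The genes most like Col14a1 were Wnt5a, a secreted signal, Cat, the enzyme catalase, and Ptpn13, a tyrosine phosphatase (correlations of deviations 0.861, 0.836 and 0.801). Between genotypes Wnt5a (-1.13, adjusted p = 2.80e-06) and Ptpn13 (-1.62, adjusted p = 3.44e-11) fell and Cat rose (0.32, adjusted p = 6.20e-04), each without overlap. Those most like Col12a1 were Fastk, Med24, a subunit of the Mediator complex, and G6pc3, a glucose-6-phosphatase (0.897, 0.890 and 0.884), whose correlations were 0.92 to 0.96 over the wild type and 0.60 to 0.66 over the knockout libraries. Col14a1 and Col12a1 had no gene in common among these.

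The wider FACIT family was also represented by Col19a1 and Col20a1. Col19a1, a FACIT known from muscle development and nervous tissue, held 44 to 170 counts in each knockout library and 6 counts over all wild type libraries, 4 of which held none. Its level was 5.73 ± 2.01 CPM over knockout and 0.0666 ± 0.0985 CPM over wild type libraries, without overlap (adjusted p = 2.86e-10, edgeR). No fold is given because all wild type libraries held 3 counts or fewer. Col20a1 was at 5.16 ± 0.955 and 6.13 ± 0.971 CPM and did not pass (adjusted p = 0.127).

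Among the 10 fibril-forming collagens that FACITs can coat or that share fibrils with them, 4 were higher and 3 lower, with a median log2 fold change of -0.45. The counts of this list and of those below stand beside 25.6% higher and 22.7% lower over all tested genes. The largest rise was that of Col3a1, a collagen of thin fibrils, from 1539 ± 302 to 5716 ± 666 CPM (1.89, adjusted p = 1.71e-10, no overlap). Col5a2 (1.10, adjusted p = 1.93e-09) and Col5a1 (0.96, adjusted p = 8.05e-05), chains of the collagen V that limits fibril width, rose. Col24a1, a minor fibril-forming collagen, rose from 5.76 ± 1.28 to 18.3 ± 4.11 CPM (log2 fold change 1.67, adjusted p = 3.10e-08). Col11a2 had the largest fall, from 1201 ± 317 to 147 ± 87.3 CPM (-3.03, adjusted p = 4.57e-06). Col11a1, its partner in collagen XI, was at 872 ± 170 CPM against 1047 ± 232 CPM and did not pass (adjusted p = 0.152). Col2a1, whose product forms the fibrils that collagen IX decorates, was at 53.9 ± 27.8 CPM against 84.0 ± 27.3 CPM and did not pass either (-0.64, adjusted p = 0.152).

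Of 18 tested genes for other molecules of the fibril surface, 6 were higher and 9 lower, with a median of -0.37. Matn3 (-4.02, adjusted p = 3.79e-11) and Matn4 (-2.53, adjusted p = 1.55e-06), matrilins that bind collagen IX and other matrix molecules, fell. Tnxb, which encodes tenascin X, a binding partner of collagens XII and XIV, fell from 2121 ± 282 to 1340 ± 265 CPM (-0.66, adjusted p = 1.47e-04). Fmod, the proteoglycan fibromodulin, fell (-1.29, adjusted p = 5.06e-08), as did Dcn, decorin (-0.42, adjusted p = 0.0185). The largest rise was that of Postn, periostin, from 18.6 ± 25.1 to 608 ± 549 CPM (5.04, adjusted p = 1.94e-04). Thbs4, thrombospondin 4, was at 3720 ± 637 and 3665 ± 617 CPM and did not pass.

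Of 11 tested cartilage genes that accompany collagen IX, 4 were higher and 3 lower, with a median of -0.09. Acan, the proteoglycan aggrecan, had the largest rise (3.34, adjusted p = 2.42e-06). Hapln1, its link protein, rose from 4.39 ± 1.38 to 43.9 ± 8.60 CPM (3.32, adjusted p = 7.15e-12), and Sox9, a regulator of cartilage genes, rose from 3.26 ± 1.10 to 16.7 ± 3.38 CPM. Chad, chondroadherin, fell from 1588 ± 274 to 392 ± 118 CPM (-2.02, adjusted p = 4.21e-09). Matn3, named above, had the largest fall of this list (-4.02), and Epyc fell too (-0.82, adjusted p = 6.66e-04, edgeR). The cartilage markers Matn1, with 6 counts over all libraries, and Cnmd, with 32, were at the floor beside Col9a1 and Col9a2. Over 12 tested chondrocyte markers 5 were higher and 3 lower. The summed level of all 14 listed was 1370 to 2700 CPM in knockout and 2270 to 3280 CPM in wild type libraries. Chad and Comp (means 392 and 1243 CPM in knockout, 1588 and 951 CPM in wild type libraries) made up most of it. The lower sum in the knockout thus goes with Chad. Matn3 and Epyc also fell, while Acan, Hapln1, Sox9, Sox5 and Comp rose. The part of cartilage RNA in the Col9a3 difference was not tested. Sox6 averaged 85.5 and 97.7 CPM and did not pass (-0.19, adjusted p = 0.0964).

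The 20 enzymes and chaperones that modify, fold or cross-link collagen chains were all tested, and 9 were higher and 6 lower (median 0.08). Lox, the most abundant, which starts the cross-linking of fibrils, fell from 3511 ± 646 to 2465 ± 714 CPM (-0.51, adjusted p = 0.0125), and Loxl2, of the same family, did not pass (-0.27, adjusted p = 0.137). P4hb, the shared subunit of prolyl 4-hydroxylase, rose from 669 ± 90.4 to 984 ± 189 CPM (0.56, adjusted p = 4.57e-04) and P3h2, a prolyl 3-hydroxylase, had the largest fall (-1.11, adjusted p = 2.79e-06). The largest rise was that of P4ha2 (4.29, adjusted p = 5.09e-14). Of 8 integrin chains and discoidin receptors, 7 of them for collagen and the other Itga7, the laminin-binding chain named above, 3 were higher, Itga7 with the largest rise (1.72), and 2 lower (median 0.03). Itga1, a chain of the integrin that binds collagen XVI, rose (0.36, adjusted p = 0.00255). Itga2 (-0.84, adjusted p = 2.37e-04) and Ddr2, a receptor for fibrillar collagen (-0.80, adjusted p = 5.29e-07), fell, and Itgb1, the β1 chain of the collagen-binding integrins, was at 765 ± 86.0 and 754 ± 51.0 CPM (adjusted p = 0.838).

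**Figure D5:**
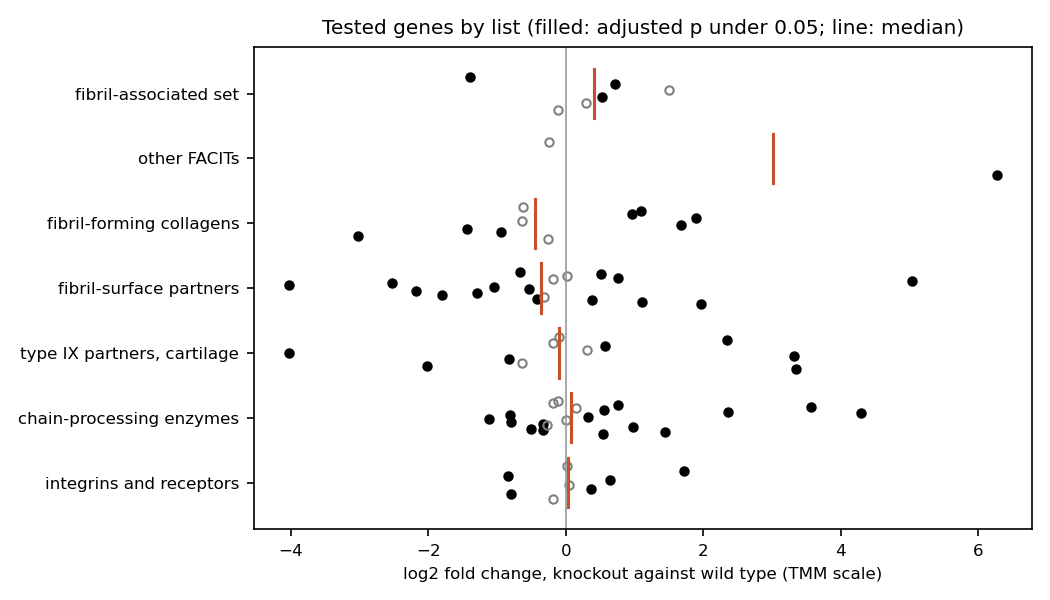
Log2 fold change between knockout and wild type (horizontal axis, TMM scale) of each tested gene in the fibril-associated set and in 6 related lists (rows). Filled points passed adjusted p under 0.05, open points did not, and vertical lines are medians. Filled points lie on both sides of 0 in every row except that of the other FACITs, which holds 2 genes, and there the fitted value of Col19a1 depends on the prior count and is no measure of its fold.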

How the data were processed

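Each of the 16 deposited files holds 1 column of raw read counts per Ensembl gene, made by the authors. Per the submitters' processing notes, kallisto and featureCounts were used with the build GRCm39. Their order, versions, annotation and use of strand are not given in the sources used here. Symbols were found for 25614 of 25719 identifiers. Chromosomes, exon lengths and overlaps are from GENCODE M21 (GRCm38), so lengths may differ slightly from those behind the counts.

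Groups are the genotypes named by the sample titles. The test was the two-sided quasi-likelihood F test of edgeR 4.0.16 (R 4.3.3) with TMM, robust dispersions, the default expression filter and genotype as the only term, adjusted by Benjamini-Hochberg over 14803 genes. It was checked on simulated counts with a fixed dispersion and few changed genes, equally many up and down. That check does not cover changes in as many genes as here, or in the share of type I collagen. Log2 CPM used a prior count of 2. Ratios used counts + 0.5 and exact permutation over 12870 assignments of libraries (smallest p 0.000155), adjusted over 13 ratios. Likeness is the Pearson correlation of deviations of log2 CPM from genotype means, and the 3 genes highest for each member, among those with mean log2 CPM of at least 1, are named. From each list the text names the 3 most abundant genes and the largest rise and fall, and other genes were named after their values were seen. The members and lists were chosen with earlier results of these data known. The list of tenocyte markers and those of muscle, junction and endothelial markers are used beside the results. Intervals and floors cover counting error or library spread only. No 2 libraries of a group were as alike as 1 library sequenced again would be (lowest chi-square per degree of freedom 6.56). The check cannot tell whether 2 libraries came from the same mouse. Proteins were not analysed here.

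Alternatives were DESeq2 1.42.0 size factors and Wald test, total counts, TMM without the 20 most abundant genes, no filter, a mean count of at least 10, limma 3.58.1 voom with quality weights, the muscle score as a covariate, the replicate number as a block, a prior count of 2 in ratios, each library left out, and, added after seeing the data, the 4 libraries of highest muscle score left out.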

Additional observations from a re-analysis of the deposited data

Results flagged for a closer look

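In 42 checks of the lowest and highest of 8 libraries (8 genes and 13 ratios in 2 genotypes), a library stood apart from the other 7 in 3, where chance gives about 1 in 20, or 2.10. Col9a3 was lowest in wild type library 3, at 0.988 on the log2(CPM + 0.5) scale against 1.67 in the next. The same library had the highest ratio of Col16a1 to type I collagen of the wild type, -8.71 against -9.35 on the log2 scale, and its type I collagen share was 11.95% of counts. Col27a1 was lowest in wild type library 6, at 3.06 on the log2(CPM + 0.5) scale against 3.49 in the next.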

How the results depend on the processing

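The calls of Col9a3, Col16a1 and Col27a1 kept their direction and their side of the threshold under every alternative run, with adjusted p of at most 7.18e-05, 0.00449 and 0.00978. The number of members called was 3, except that it was 5 with limma-voom, where Col14a1 (0.35) and Col22a1 (3.66) passed, 4 with total counts and with the replicate block, and between 3 and 4 with each library left out. Genes called numbered 6101 to 9685 over all alternatives, and with total counts 85.4% of calls were higher in the knockout, against 53.0%. Total counts reversed Col12a1 (0.19) and took Col14a1 past the threshold (0.58). Without the filter Col9a1 (-1.24) and Col9a2 (1.19) gave values that did not pass. With 21 and 29 counts over all 16 libraries, these values are no measure of a fold. With a prior count of 2, the ratio of Col22a1 to muscle genes was reversed (-0.17) and that of Col9a1 to Col9a2 passed (-0.97, adjusted exact p = 0.0482). The cause was not tested for any of these. With each library left out, log2 values ran from 0.22 to 0.35 for Col14a1, from 0.87 to 3.22 for Col22a1, from -0.49 to -0.17 for Col9a3 to type I collagen, from 3.69 to 5.07 for Col22a1 to type I collagen and from -2.17 to -1.57 for Col9a1 to Col9a2. Same-numbered libraries of the genotypes share only a number in the labels, which do not say whether they belong together. The correlation of their deviations ran from -0.40 to 0.39, and 1 of 8 knockout libraries correlated best with its own number. These values do not settle whether the libraries are paired. With the replicate number as a block 7010 genes passed, Col14a1 passed (0.29), the ratio of Col12a1 to Col14a1 passed (-0.39, adjusted exact p = 0.029) and that of Col22a1 to type I collagen did not (4.26, adjusted exact p = 0.0635). Depth limits Col9a1 and Col9a2, which were at or under 3 counts in most libraries.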
